A study of Mus musculus with 10 samples.

Results

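The genes described here are Retsat and 8 further genes of retinoid metabolism, Rbp4, Rdh7, Rdh11, Rdh16, Dhrs3, Cyp26a1, Rarb and Bco1, which are 9 of the 21939 genes in the deposited table. They were found in the table by the Ensembl identifiers of these symbols. Retsat had been chosen from its level in these same libraries, and the other members were picked with earlier results from them in view, so the differences of the 9 genes between genotypes are given as a description, without p-values. All 9 genes passed the filter on low counts that 13641 genes of the table passed. RNA was measured in hepatocytes of male mice, freshly isolated 12 days after injection of AAV8Cre, an adeno-associated virus carrying Cre recombinase under the hepatocyte-specific thyroxine-binding globulin promoter. The labels give the age of the mice as 8 to 9 weeks, without the step at which it was taken. All 4 genotypes received AAV8Cre and, per the methods of the study, shared the genetic background of the control mice. The 3 control mice were C57BL6/j mice without floxed alleles, the 2 Nrf2 KO mice were Nrf2 flox/flox, the 2 p65 KO mice were p65 flox/flox, and the 3 DKO mice were floxed for both genes. Nrf2 is the transcription factor of the antioxidant response and p65 is a subunit of NF-κB, and the comparison asks how the absence of either or both in hepatocytes goes together with the RNA of retinoid genes. The control mice differ from the others by the floxed alleles as well as by their deletion, and these cannot be told apart.

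Vitamin A reaches the liver as retinyl esters or is made from beta-carotene, is stored as ester mainly in hepatic stellate cells, and leaves the liver as retinol bound to a plasma carrier that hepatocytes secrete. Short-chain dehydrogenases convert retinol to retinal and back, aldehyde dehydrogenases oxidize retinal to retinoic acid, and retinoic acid acts through nuclear receptors until it is broken down. Several genes of the pathway, among them Cyp26a1, Rarb and Dhrs3, are known to be induced by retinoic acid itself. Retsat encodes retinol saturase, an enzyme of the endoplasmic reticulum that turns all-trans-retinol into all-trans-dihydroretinol.

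The start regions of 3 of these genes are shown because they were the only ones of the 9 that held a match to any of 5 motifs searched on both strands, the antioxidant response element TGACNNNGC, the E-box CACGTG, the kappa-B consensus, and direct repeats of the nuclear receptor recognition unit spaced by 1 base (DR1) or by 5 bases (DR5). DR5 is the classical spacing of retinoic acid response elements. Each window holds 250 bases before and 50 bases from the start of the canonical GENCODE M39 transcript, read 5′ to 3′ on the strand of the gene from GRCm39, with the matched bases in capitals. The windows lie at chr6:72575208-72575507 for Retsat, chr19:37685991-37686290 for Cyp26a1 and chr8:117822343-117822642 for Bco1, all on the plus strand.
Retsat: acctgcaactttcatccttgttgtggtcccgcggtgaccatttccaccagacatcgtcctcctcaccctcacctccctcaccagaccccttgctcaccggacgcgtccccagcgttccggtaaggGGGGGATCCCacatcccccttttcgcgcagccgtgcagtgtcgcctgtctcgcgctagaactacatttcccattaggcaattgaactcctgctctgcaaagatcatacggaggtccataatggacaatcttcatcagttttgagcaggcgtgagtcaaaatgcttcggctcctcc
Cyp26a1: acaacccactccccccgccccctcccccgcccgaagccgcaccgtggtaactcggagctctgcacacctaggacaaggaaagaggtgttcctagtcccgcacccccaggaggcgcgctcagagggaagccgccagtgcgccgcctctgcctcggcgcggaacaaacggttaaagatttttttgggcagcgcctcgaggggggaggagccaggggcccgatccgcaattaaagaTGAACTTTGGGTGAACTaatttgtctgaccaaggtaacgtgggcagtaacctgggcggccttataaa
Bco1: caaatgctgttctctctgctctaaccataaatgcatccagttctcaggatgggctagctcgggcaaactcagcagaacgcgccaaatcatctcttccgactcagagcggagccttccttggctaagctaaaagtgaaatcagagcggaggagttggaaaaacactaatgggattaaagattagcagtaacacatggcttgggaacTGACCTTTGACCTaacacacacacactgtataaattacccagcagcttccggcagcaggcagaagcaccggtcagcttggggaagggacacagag
The Retsat window held 1 kappa-B stretch at positions -125 to -116 from the start, which matched on either strand. A kappa-B match was found in 8.97% of the 21757 windows of protein-coding genes, so a match of this kind is common. In the Cyp26a1 window the DR5 match lay at positions -17 to -1 on the opposite strand, and in the Bco1 window the DR1 match lay at positions -45 to -33, also on the opposite strand. DR5 and DR1 matches were found in 0.0552% and 0.225% of all windows. No window of the 9 genes held the antioxidant response element or the E-box, which were found in 12.5% and 7.82% of all windows. Only 1 window per gene was searched, so other transcript starts of a gene were not covered. For Rarb the window, at chr14:5893686-5893985, lies inside the gene model, which begins at 5650540. Whether any protein binds these letters was not measured in these libraries. The study compared its changed genes with published Nrf2 and p65 binding data from mouse liver, which were not examined here.

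The total count per library ranged from 33707165 to 49897382. Values below are normalized counts, which are the deposited estimated counts divided by the library size after TMM scaling and multiplied by the mean of these sizes. Nfe2l2, the gene for Nrf2, stood at 2100 ± 189 normalized counts (SD, n = 3) in control, and was higher in Nrf2 KO, with a log2 fold change of 1.21 and a standard error of 0.156 (edgeR, adjusted p = 0.00488), and in DKO, with 1.02 and a standard error of 0.143 (edgeR, adjusted p = 0.00347). Rela, the gene for p65, had a log2 fold change of -0.07 with a standard error of 0.138 in p65 KO (edgeR, adjusted p = 0.765). A total per gene does not show the deleted exons, so that the genotypes are those of the labels. The summed counts of 10 hepatocyte markers lay between 3880262 and 6017873 in all libraries. In contrast, the sums of 12 stellate cell markers were 251 to 499 in control, 202 to 396 in Nrf2 KO, 2602 to 2778 in p65 KO and 480 to 1247 in DKO libraries. Those of 12 Kupffer cell markers were 379 to 957, 264 to 815, 4470 to 6083 and 1661 to 2924, and those of 10 sinusoidal endothelial cell markers were 734 to 1621, 1013 to 1891, 3899 to 5254 and 2120 to 2926, in the same order. In p65 KO 9, 12 and 10 genes of these 3 lists were called higher than in control, and in DKO 1, 5 and 1. Of these defining markers, only the stellate cell gene Col1a1 was at 0 in every control library. The sums of 6 cholangiocyte markers were between 151 and 444 in all libraries, with the lowest in Nrf2 KO. The sums of 9 T, NK and B cell markers were 2.21 to 2.95 in control, 2.42 to 2.97 in Nrf2 KO, 13.2 to 19.3 in p65 KO and 5.72 to 21.0 in DKO, and those of 8 neutrophil and monocyte markers were 3.74 to 8.85, 5.93 to 10.5, 45.4 to 109 and 19.5 to 64.0, in the same order. In p65 KO 3 of the neutrophil and monocyte markers were called higher than in control. At 0 in every control library were 5 of the lymphocyte markers (Cd3d, Trac, Nkg7, Klrb1c and Cd79b) and the neutrophil marker Ly6g.

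Retsat RNA was lower in hepatocytes of each knockout than in those of control mice, with the lowest level in p65 KO. The 3 control libraries held 29935, 24825 and 30905 normalized counts of Retsat, the 2 Nrf2 KO libraries 14222 and 12252, the 2 p65 KO libraries 6455 and 6812, and the 3 DKO libraries 9470, 13000 and 9079. Each knockout library thus lay below every control library, and both p65 KO libraries lay below all others. The DKO libraries lay above those of p65 KO, and 1 of them, with 13000 counts, lay between the libraries of Nrf2 KO. In Nrf2 KO the mean was 0.464 times that of control, with a log2 fold change of -1.11 and a standard error of 0.175. In p65 KO it was 0.232 times that of control, with a log2 fold change of -2.11 and a standard error of 0.183, and in DKO 0.368 times, with -1.44 and a standard error of 0.154. The deletion of Nrf2 in addition to p65 was thus accompanied by a higher, not a lower, level of Retsat, with a log2 fold change of 0.66 and a standard error of 0.172 between DKO and p65 KO. Between DKO and Nrf2 KO the log2 fold change was -0.33, with a standard error of 0.168, and the libraries overlapped. The interaction, in which the change from control to Nrf2 KO is subtracted from the change from p65 KO to DKO, was 1.77 on the log2 scale with a standard error of 0.246. In bulk RNA, fewer cells of a type and less RNA per cell cannot be told apart.

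**Figure D1:**
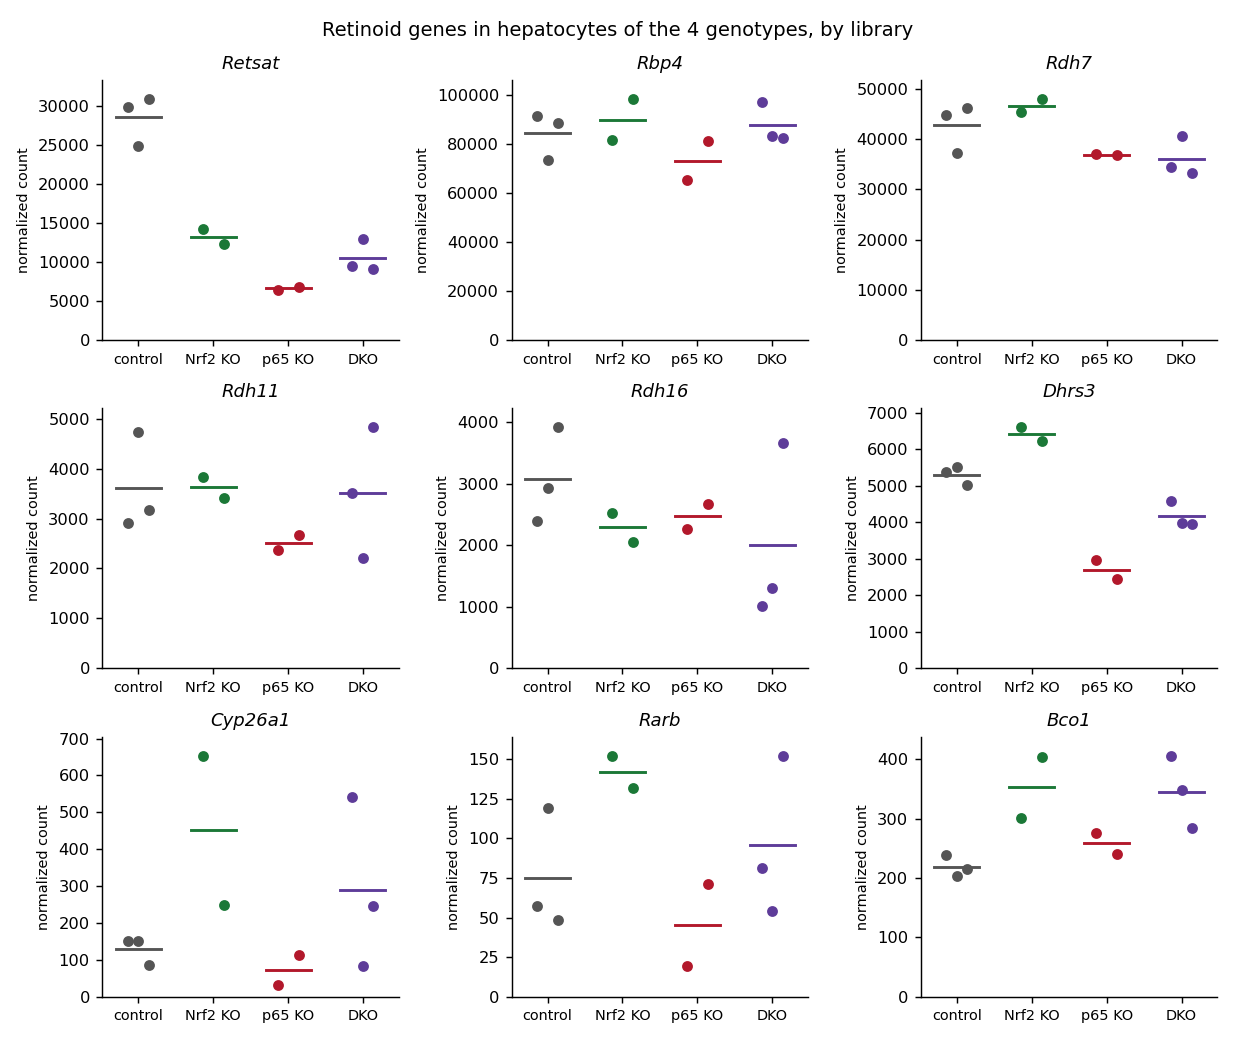
Normalized counts of the 9 retinoid genes on linear axes from 0, with 1 point per library and a bar at the mean of each genotype. Retsat lay between 24825 and 30905 in the control libraries and between 6455 and 14222 in the others, whereas Rbp4 had overlapping libraries in each knockout and control.

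A gene was called when its adjusted p did not exceed 0.05 and its fold change reached 1 on the log2 scale, up or down. Of all genes tested, 0.55%, 6.59% and 2.38% passed against control in Nrf2 KO, p65 KO and DKO, and Retsat was the member that passed in each of these comparisons, 1 of 9. Retsat also lay past this rule in the interaction, where 0.455% of all genes were called. Because the members were chosen with results of these libraries in view, nothing is read from these counts, the interaction included. The same holds for every call of a member below. Between DKO and p65 KO 1.78% of all genes were called and between DKO and Nrf2 KO 0.433%, and 0 of the 9 members were among them by edgeR, DESeq2 or limma, with 4 and 2 members under an unadjusted p of 0.05. How many of all genes lay under this unadjusted cut was not counted, so nothing is read from these 2 values. The libraries did not overlap with those of control for 5, 5 and 3 members in Nrf2 KO, p65 KO and DKO. The share of all genes tested without overlap was 28.5%, 50% and 26.5% in Nrf2 KO, p65 KO and DKO. In Nrf2 KO Retsat no longer passed without control 1 (log2 fold change -1.07), control 3 (-1.05), Nrf2 KO 1 (-1.22) or Nrf2 KO 2 (-1.01), whereas it passed in p65 KO and DKO whichever library was left out. In the interaction it no longer passed without Nrf2 KO 2 (1.67), p65 KO 1 (1.74) or p65 KO 2 (1.81).

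**Figure D2:**
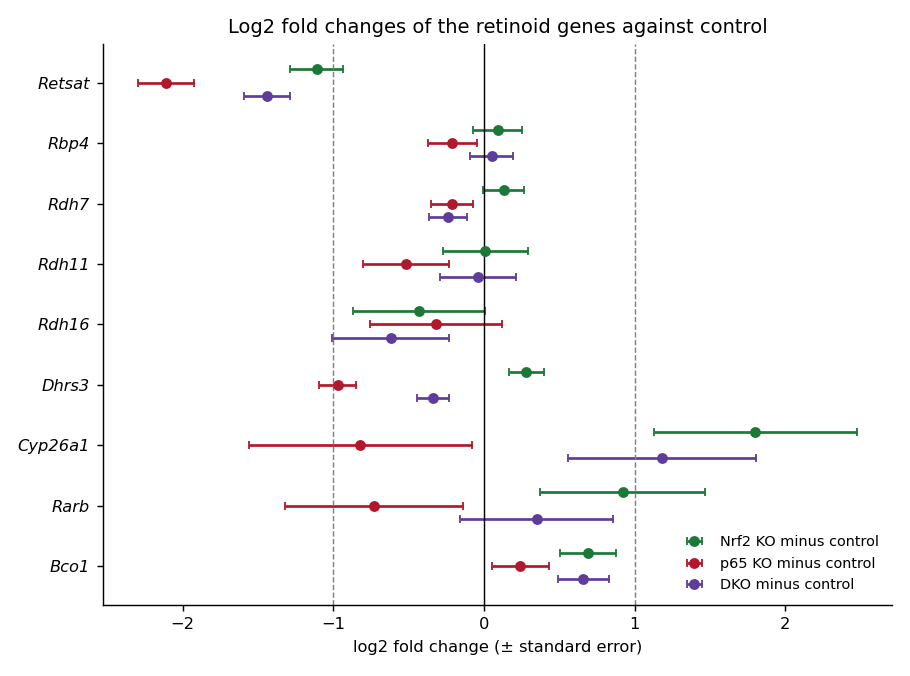
Log2 fold change of each retinoid gene against control (x axis, without unit) with its standard error as a horizontal bar, in 1 colour per knockout, with dashed lines at -1 and 1. Retsat lay beyond -1 in each knockout, from -1.11 in Nrf2 KO to -2.11 in p65 KO, and Cyp26a1 and Rarb had the widest bars.

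The secreted carrier Rbp4 and the retinol dehydrogenase Rdh7 lay close to their control levels. Rbp4, which encodes the plasma carrier of retinol, held 91270, 73294 and 88293 normalized counts in control, 81351 and 98270 in Nrf2 KO, 65077 and 80946 in p65 KO, and 97037, 83035 and 82366 in DKO libraries. The libraries of each knockout overlapped with those of control, and its log2 fold changes were 0.09, -0.21 and 0.05 in Nrf2 KO, p65 KO and DKO with standard errors of 0.16, 0.161 and 0.143. Rdh7, a retinol dehydrogenase of the cluster on chromosome 10, held 44900, 37201 and 46205 normalized counts in control, 45323 and 48013 in Nrf2 KO, 36991 and 36883 in p65 KO, and 34493, 40734 and 33233 in DKO libraries. Both p65 KO libraries lay just below the lowest control library, whereas those of Nrf2 KO and DKO overlapped with control. The log2 fold change of Rdh7 was -0.21 in p65 KO with a standard error of 0.139, and -0.24 in DKO with a standard error of 0.124.

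The other retinol dehydrogenases among the members had a wider spread within genotypes. Rdh11, a retinal reductase of the endoplasmic reticulum, held 2911, 4729 and 3176 normalized counts in control, 3837 and 3412 in Nrf2 KO, 2364 and 2669 in p65 KO, and 3508, 2213 and 4823 in DKO libraries. Its p65 KO libraries lay below the control libraries, but 1 DKO library was lower still. Rdh16, another enzyme of the cluster on chromosome 10, held 2389, 2925 and 3912 normalized counts in control, 2529 and 2051 in Nrf2 KO, 2267 and 2670 in p65 KO, and 1016, 1312 and 3659 in DKO libraries. The DKO mice thus differed 3.6-fold among themselves. Without DKO 3 its log2 fold change in DKO moved from -0.62 to -1.40. Of the 31-base stretches of the canonical Rdh16 transcript, 23.9% also stood in transcripts of other genes of the table, most of them in Rdh9, and for Rdh7 this share was 18.1%, so the estimated counts of these genes depend in part on how the authors' program shared reads among them.

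Dhrs3, which encodes a retinal reductase that returns retinal to retinol, had its lowest level in p65 KO. The control libraries held 5364, 5501 and 5005 normalized counts of Dhrs3, those of Nrf2 KO 6592 and 6217, those of p65 KO 2956 and 2454, and those of DKO 4570, 3991 and 3959. The 4 genotypes did not overlap with each other, in the order Nrf2 KO, control, DKO and p65 KO from the highest to the lowest. The log2 fold change of Dhrs3 against control was 0.28, -0.97 and -0.34 in Nrf2 KO, p65 KO and DKO, with standard errors of 0.117, 0.122 and 0.106. The value in p65 KO lay between -1.11 and -0.84 when 1 library was left out. As for Retsat, DKO lay above p65 KO, with a log2 fold change of 0.63 and a standard error of 0.12. Over the alternative settings this value lay between 0.36 and 0.77.

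Cyp26a1 and Rarb, which are classical retinoic acid-induced genes, were low and variable. Cyp26a1 encodes the main enzyme that breaks down retinoic acid, and held 151, 150 and 85 normalized counts in control, 653 and 249 in Nrf2 KO, 32.5 and 112 in p65 KO, and 541, 83.0 and 247 in DKO libraries. Both Nrf2 KO libraries lay above every control library, but the DKO libraries spread over 6.51-fold and overlapped with every other genotype. The log2 fold change of Cyp26a1 was 1.80, -0.82 and 1.18 in Nrf2 KO, p65 KO and DKO, with standard errors of 0.672, 0.741 and 0.623, and none of these passed the call rule. It moved to 0.95 in Nrf2 KO without Nrf2 KO 1, to -0.19 in p65 KO without p65 KO 1 and -1.98 without p65 KO 2, and to 0.36 in DKO without DKO 1. Rarb, which encodes retinoic acid receptor beta, held 57.4, 119 and 48.6 normalized counts in control, 152 and 132 in Nrf2 KO, 19.3 and 70.9 in p65 KO, and 81.0, 53.9 and 152 in DKO libraries. Its Nrf2 KO libraries also lay above all control libraries, whereas those of p65 KO and DKO overlapped with control. The log2 fold change of Rarb was 0.92, -0.73 and 0.35 in Nrf2 KO, p65 KO and DKO, with standard errors of 0.549, 0.59 and 0.506. Leaving out 1 library moved it between 0.68 and 1.42 in Nrf2 KO and between -1.95 and -0.08 in p65 KO, and without DKO 3 the value in DKO turned to -0.15. Over the 10 libraries the log2 values of Cyp26a1 and Rarb had a Pearson r of 0.818, and of 0.628 after the mean of each genotype was subtracted. These correlations are a description of 10 libraries that share their depth and isolation.

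Bco1, which encodes the enzyme that cleaves beta-carotene to retinal, was the member with the most even shift upward. It held 239, 203 and 216 normalized counts in control, 302 and 404 in Nrf2 KO, 276 and 241 in p65 KO, and 406, 348 and 284 in DKO libraries. All knockout libraries lay above all control libraries, in p65 KO by a narrow margin. The log2 fold change of Bco1 was 0.69, 0.24 and 0.66 in Nrf2 KO, p65 KO and DKO, with standard errors of 0.186, 0.19 and 0.17, and was below the call rule in each.

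Per kb of canonical transcript, the order of the members over all libraries was Rbp4 with a mean of 89748 normalized counts per kb, Rdh7 with 24060, Retsat with 4342, Dhrs3 with 1702, Rdh11 with 848, Rdh16 with 766, Cyp26a1 with 128, Bco1 with 125 and Rarb with 26.1. The ranges of single libraries on this scale did not overlap between Rbp4 and Rdh7, between Rdh7 and Retsat, or between Bco1 and Rarb. Neighbours whose ranges overlapped were Retsat (1786 to 8549) and Dhrs3 (896 to 2407), Dhrs3 and Rdh11 (558 to 1216), Rdh11 and Rdh16 (315 to 1212), Rdh16 and Cyp26a1 (18.1 to 363), and Cyp26a1 and Bco1 (86.6 to 174). The level of Retsat per kb was 7899 in control and 1835 in p65 KO, so that it kept its place above the mean of Dhrs3, which was 1931 in control and 988 in p65 KO.

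**Figure D3:**
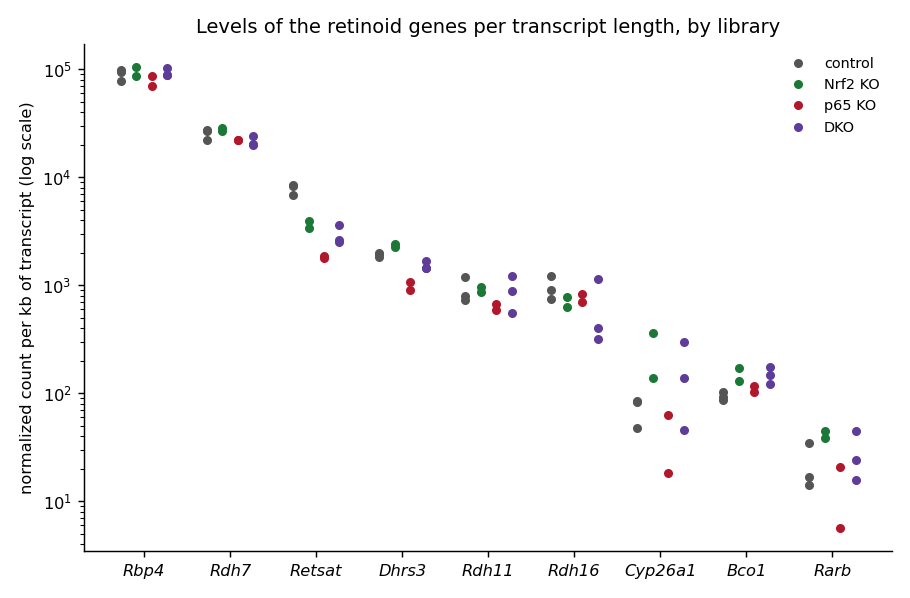
Normalized counts per kb of canonical transcript on a log axis for the 9 retinoid genes, ordered by their mean, with 1 point per library coloured by genotype. The members spanned levels from 26.1 for Rarb to 89748 for Rbp4.

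The other genes of the pathway were taken from a list of 48 genes in 8 role groups, of which 37 passed the filter. This list was drawn up with earlier results of these data known. Its shares and p-values, here and below, are thus no independent test. In Nrf2 KO 0 of the 37 genes were called by edgeR, with 11 under an unadjusted p of 0.05, and DESeq2 called 1 (Dhrs9) and limma 0. How many of all genes lay under this unadjusted cut was not counted, so nothing is read from the 11. In p65 KO 2 were called higher (Lrat and Rdh9) and 1 lower (Dhrs9), which is 8.11% of the 37 beside 6.59% of all genes. In DKO 3 were called lower (Dhrs9, Aldh1a1 and Rdh1), again 8.11%, beside 2.38% of all genes. The 3 calls in p65 KO became 5 without DKO 2, and the 3 in DKO became 0 without control 1 or control 2. Without DKO 3 only Aldh1a1 stayed called in DKO. Without DKO 2 none of the 3 stayed, and Pnpla3 was called instead. The median log2 fold change of the 37 genes was 0.12, -0.22 and -0.02 in Nrf2 KO, p65 KO and DKO, and that of all genes tested 0.002, 0.001 and 0.025. The 3 comparisons share their control libraries.

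Among storage genes, Lrat, which encodes the enzyme that esterifies retinol, held 21.0, 10.8 and 22.4 normalized counts in control, 31.6 and 12.1 in Nrf2 KO, 63.0 and 127 in p65 KO, and 30.5, 62.8 and 28.6 in DKO libraries. Lrat rose in p65 KO, where both libraries lay above all others, by 2.39 on the log2 scale with a standard error of 0.548 (edgeR, adjusted p = 0.0183). Lrat is known for its expression in stellate cells, and the summed stellate cell markers were 7.84 times those of control in p65 KO and 2.21 times in DKO, and their part in this difference was not tested. The call of Lrat was lost without control 1 (log2 fold change 2.50), control 2 (2.12) or p65 KO 2 (1.80). It was also lost with a block for the replicate number (2.33).

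**Figure D4:**
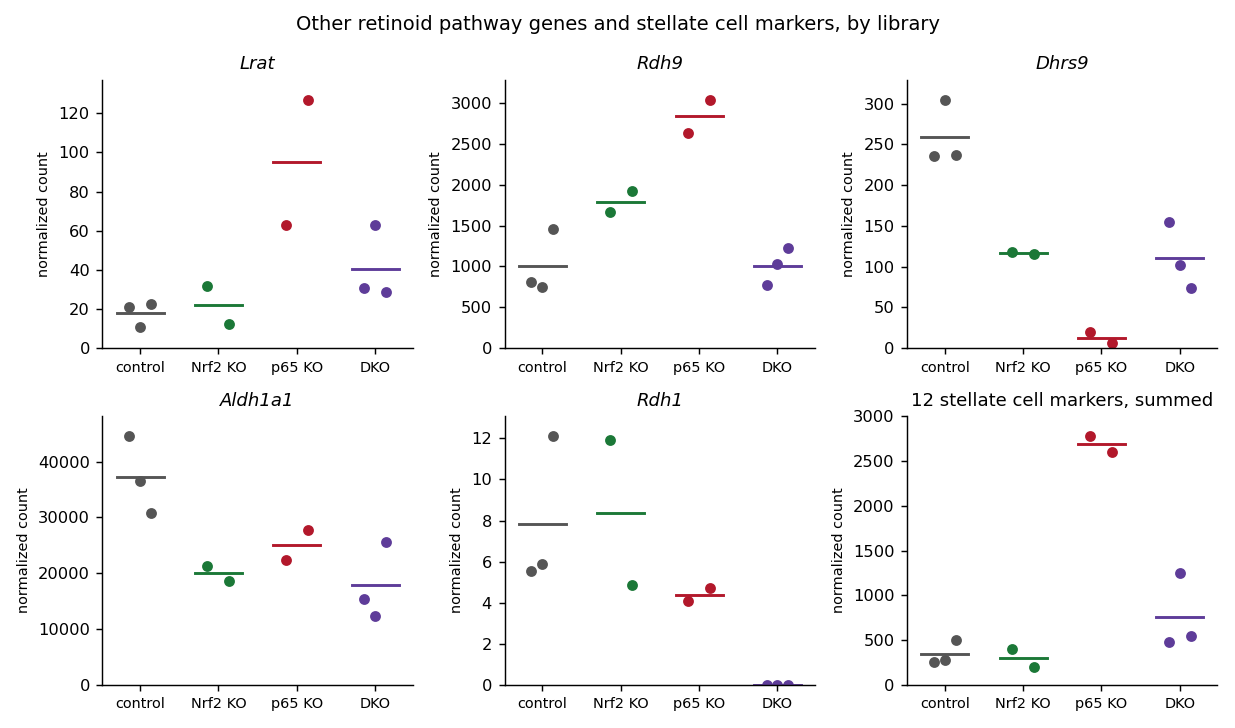
Normalized counts of 5 called genes of the retinoid pathway and the sum of 12 stellate cell markers on linear axes from 0, with 1 point per library and a bar at the mean of each genotype. Dhrs9 lay between 236 and 305 in control and between 6.62 and 19.3 in p65 KO, and the stellate cell sum between 251 and 499 and between 2602 and 2778.

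Among enzymes that interconvert retinol and retinal, Dhrs9 and Rdh9 differed in opposite directions in p65 KO. Dhrs9, a short-chain dehydrogenase with activity on retinol, held 236, 305 and 237 normalized counts in control, 118 and 116 in Nrf2 KO, 19.3 and 6.62 in p65 KO, and 155, 102 and 73.2 in DKO libraries. Each knockout library lay below all control libraries, and those of p65 KO lay far below the rest. Dhrs9 fell by 4.33 on the log2 scale in p65 KO with a standard error of 0.45 (edgeR, adjusted p = 0.000722), and by 1.23 in DKO with a standard error of 0.31 (edgeR, adjusted p = 0.0441). Between DKO and p65 KO it was higher by 3.09 on the log2 scale, with a standard error of 0.443 (edgeR, adjusted p = 0.008). In Nrf2 KO its log2 fold change of -1.15 was not significant (edgeR, adjusted p = 0.253). The call in DKO was lost when any 1 library of control or Nrf2 KO, DKO 2 or DKO 3 was left out, with log2 fold changes from -1.30 to -1.01, and also with limma (-1.29) or scaling to equal upper quartiles (-1.19), whereas that in p65 KO was kept whichever library was left out, from -5.27 to -3.74. Without p65 KO 2 the difference between DKO and p65 KO was 2.50 and no longer called, nor was it called with only these 2 genotypes compared (3.09).

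Rdh9, a dehydrogenase of the cluster on chromosome 10, held 812, 754 and 1461 normalized counts in control, 1664 and 1925 in Nrf2 KO, 2634 and 3042 in p65 KO, and 777, 1028 and 1223 in DKO libraries. The single knockouts lay above all control libraries, whereas DKO lay within their range. Rdh9 rose in p65 KO by 1.49 on the log2 scale with a standard error of 0.263 (edgeR, adjusted p = 0.00621), and its log2 fold change of -1.49 between DKO and p65 KO was also significant, with a standard error of 0.263 (edgeR, adjusted p = 0.0164). The latter was no longer called without p65 KO 1 (-1.59), p65 KO 2 (-1.38) or DKO 1 (-1.33). Of its canonical transcript, 91% of the 31-base stretches also stand in Rdh16f1, an overlapping gene model that was at 0 in every library, so the counts of Rdh9 and of both together are the same. Rdh1, a retinol dehydrogenase beside them, had 5, 6 and 13 counts in control, 12 and 6 in Nrf2 KO, 4 and 5 in p65 KO, and 0 in each DKO library. Rdh1 was called lower in DKO than in control (edgeR, adjusted p = 0.0328), at a depth of a few counts. Its control mean was 2.37 times a floor of 3 counts per DKO library. The call was lost when any 1 library of control, p65 KO or DKO was left out. Of the 31-base stretches of its canonical transcript, 27.7% also stood in transcripts of other genes of the table.

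Aldh1a1, which encodes an enzyme that oxidizes retinal to retinoic acid, held 44535, 36598 and 30790 normalized counts in control, 21266 and 18686 in Nrf2 KO, 22380 and 27705 in p65 KO, and 15410, 12352 and 25652 in DKO libraries. Every knockout library lay below every control library. Aldh1a1 fell by 1.07 on the log2 scale in DKO with a standard error of 0.243 (edgeR, adjusted p = 0.0301), and its changes of -0.90 with loss of Nrf2 alone and of -0.58 with loss of p65 alone were not called. The call in DKO was lost without control 1 (-0.92), control 2 (-1.08), DKO 1 (-0.97) or DKO 2 (-0.86), or with only the 2 genotypes compared (-1.07).

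The 5 genes whose levels were most like those of Retsat over the 10 libraries were Ech1, Etfdh, Pdk4, Btd and Tent2, among 10184 genes whose mean was not under 50 normalized counts. Their Pearson r with Retsat, on log2 of the normalized count plus 1, was 0.978, 0.959, 0.957, 0.955 and 0.954. Ech1 and Etfdh encode enzymes of fatty acid oxidation and of the electron transfer from it, Pdk4 a kinase that inhibits pyruvate dehydrogenase, Btd the biotin-recycling enzyme biotinidase, and Tent2 a terminal nucleotidyltransferase. The log2 fold changes of Ech1 were -0.46, -0.94 and -0.73 in Nrf2 KO, p65 KO and DKO, and those of Pdk4 were -1.55, -4.18 and -3.04. Ech1, Etfdh, Btd and Tent2 thus followed the order of Retsat over the genotypes with smaller steps, and Pdk4 with larger ones. When any 1 library was left out, between 2 and 4 of these genes stayed among the 5 most like Retsat. Of the retinoid genes, only the other members and the pathway genes Dhrs4 and Dhrs9 were looked up in this order. Dhrs4 stood at rank 21, Dhrs9 at rank 263 and Dhrs3, the first of the other members, at rank 1077.

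**Figure D5:**
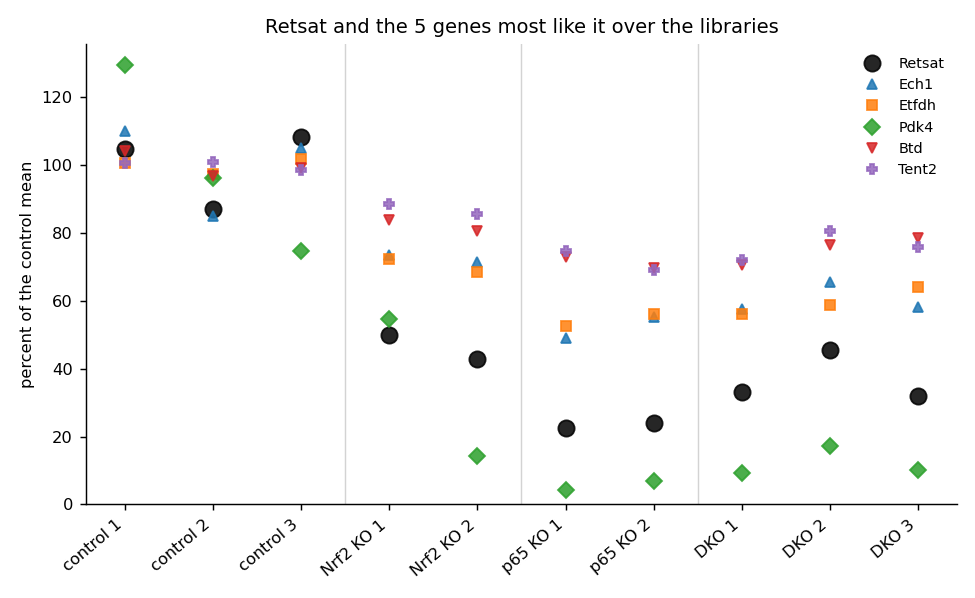
Level of Retsat (black) and of the 5 genes most like it as percent of their own control mean (y axis, from 0) in each of the 10 libraries (x axis). All 6 genes had their lowest library in p65 KO, and the mean log2 fold change there was -2.11 for Retsat, -4.18 for Pdk4 and -0.94 for Ech1.

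Of 17 genes that start within 500000 bases of the start of Retsat, 15 passed the filter, and 2 of them, or 13.3%, were called in p65 KO, beside 6.59% of all genes. In Nrf2 KO and in DKO 0 of the 15 were called by edgeR, DESeq2 or limma, with 4 in each under an unadjusted p of 0.05. How many of all genes lay under this unadjusted cut was not counted. The 2 genes called in p65 KO are named after their values were seen. Elmod3, which lies head to head with Retsat on the opposite strand and starts 385 bases inside it, had mean normalized counts of 786 in control, 561, 378 and 618 in Nrf2 KO, p65 KO and DKO, and fell by 1.05 on the log2 scale in p65 KO (edgeR, adjusted p = 0.0141). Elmod3 shares no 31-base stretch with other genes of the table, with each transcript read in its own direction only. That comparison cannot see an overlap on opposite strands, such as the one with Retsat. The authors' counting used strand, and any part of the overlap in the difference of Elmod3 was not tested. Tmsb10, an actin-binding gene expressed in many non-hepatocyte cells, rose by 2.60 on the log2 scale in p65 KO (edgeR, adjusted p = 0.00353) from a mean of 10.4 to 63.5 normalized counts.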

How the data were processed

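RNA of hepatocytes from 10 mice was prepared with the TruSeq stranded mRNA kit and sequenced as single reads. The authors quantified the reads with Salmon 1.10.3, set for stranded reads, with the GENCODE M33 transcripts of GRCm39, and the deposited table holds 1 estimated count for each gene in each mouse, in whole numbers. It carries the name of a normalized table, but the totals (33707165 to 49897382) and the median-of-ratios size factors (0.8789 to 1.259) differ between libraries, and the values were used as estimated counts without normalization. The step from transcripts to genes is not given in the sources used here.

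Tests used edgeR 4.0.16 under R 4.3.3 (on the estimated counts, quasi-likelihood test, TMM, at least 10 counts summed over the 10 libraries, 13641 genes) in 1 model of the 4 genotypes, with Benjamini-Hochberg adjustment over all genes. Calls required that the adjusted p did not exceed 0.05 and that the fold change reached 1 on the log2 scale, up or down. The script was tested on simulated data. GENCODE M39 gave names and positions for 21926 of the identifiers. Groups and replicate numbers are those of the labels, and p-values measure the spread between single mice. A floor of 3 counts per library was used for a gene at 0, which covers counting error only.

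The named genes are the 9 members, the listed pathway genes called against control at least once, the 5 genes most like Retsat, and Nfe2l2 and Rela. Elmod3, Tmsb10, Dhrs4, Fabp5, Rarres1, Pnpla3, Rdh13, Rxrg and the cell markers at 0 fall outside this rule and were named after their values were seen. The members and lists were chosen with earlier results of these data known, and 1 gene of the pathway list is not reported here and is in none of its counts. The alternatives were DESeq2 1.42.0, limma 3.58.1 on log2 of the normalized count plus 1, the filter removed or set at a mean of 10 counts, scaling to equal totals, to equal upper quartiles and by median-of-ratios size factors, a block for the replicate number, a fit on the 2 genotypes of a comparison alone, leaving out each library, and a pseudocount of 10 for likeness to Retsat. Sequences were read from GRCm39. Figures used matplotlib 3.10.9 and Python 3.11.15.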

Additional observations from a re-analysis of the deposited data

Results flagged for a closer look

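The difference of p65 KO from control and that of DKO from Nrf2 KO were compared by the interaction term for the 37 genes of the pathway list. The call rule was passed by 2 of them, which is 5.41% beside 0.455% of all genes tested. Because the list was chosen with earlier results of these data known, nothing is read from this share. The interaction of Dhrs9 was 4.24 on the log2 scale with a standard error of 0.568 (edgeR, adjusted p = 0.0123). Its level was 259 normalized counts in control and 13.0 in p65 KO on average, and 117 in Nrf2 KO and 110 in DKO. The call was lost without Nrf2 KO 2 (4.23) or p65 KO 2 (3.66).

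The interaction of Rdh9 was -2.32 on the log2 scale with a standard error of 0.372 (edgeR, adjusted p = 0.03). Its level was 1009 normalized counts in control and 2838 in p65 KO on average, and 1794 in Nrf2 KO and 1009 in DKO. The call was lost in 7 of the 10 fits that left out 1 library, those without control 1 or 2, either Nrf2 KO library, either p65 KO library or DKO 1, and the interaction was between -2.68 and -2.15 over all 10.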

How the results depend on the processing

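For the 9 members, 1004 of 1017 alternative values in 6 contrasts lay on the same side of the call rule, 8 lost a call, 5 gained one and 0 reversed a call. Most of these values belong to members not called in the main fit, which had no call to lose or reverse. The 8 lost calls were all of Retsat, in 5 of 19 alternatives in Nrf2 KO and in 3 of 18 in the interaction. No call of the pathway genes reversed in 558 alternatives. Called pathway genes in Nrf2 KO were 0, and 1 with DESeq2 (Dhrs9), with the replicate block (Rdh9) and with only the 2 genotypes compared (Dhrs9), and 0 to 1 when a library was left out. In p65 KO they were 3, and 5 with only the 2 genotypes compared, where Fabp5 and Rarres1 were also called. They were 2 to 5 when a library was left out. With the replicate block they were again 3, but Lrat was lost and Rxrg gained. In DKO they were 3, and 0 with the replicate block and 1 with only the 2 genotypes compared (Dhrs9), where fewer libraries inform the spread. When a library was left out they were 0 to 2. Among these were genes not called in the main fit, Rdh13 without control 3 or DKO 1 and Pnpla3 without DKO 2. Called members in Nrf2 KO were 1, and 0 with the replicate block and 0 to 1 when a library was left out. In p65 KO they were 1, and 2 with the replicate block (Retsat and Dhrs3) and 1 to 2 when a library was left out, and in DKO 1 to 2. Of the 5 genes most like Retsat, 2 to 4 stayed when a library was left out. The cause of these changes was not tested. A left-out library from a genotype of 2 leaves a lone library, which is assumed to vary like the others.

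Whether the replicate numbers pair the libraries cannot be decided here. Deviations from the genotype means over 10185 genes correlated between -0.232 and 0.113 in 13 same-numbered pairs, and 1 pair was over 0.1. In a genotype of 2 libraries the deviations mirror each other, so these pairs are not independent. Pairs of unlike number were not compared. Scaling to equal totals shifted the median log2 fold change of all genes by 0.177 for p65 KO and by -0.094 for DKO. Genes with few counts, such as Rdh1 and Lrat, are limited by depth. The same holds for Dhrs9 in p65 KO, with 19.3 and 6.62 normalized counts, and thus for the size of its differences from p65 KO.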
